A study of Homo sapiens with 12 samples.

Results

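The genes described here encode 8 proteins that hold the kinase mTOR in check: SESN1, SESN2, SESN3, DDIT4, TSC1, TSC2, DEPTOR and AKT1S1. They were chosen by function, by way of a list drawn up with the FPKM differences between dihydroartemisinin (DHA) and DMSO in these same libraries already known. The change of each member is therefore a description here. Where a member is said to be called, that places it in the fit over the whole table and is not evidence for the choice of genes. All 8 have a row both in the LP-1 table, which lists 61806 genes by Ensembl identifier, and in the U266 table, which lists 19130 gene symbols. LP-1 and U266 are established human multiple myeloma lines, grown from malignant plasma cells and labelled as wild type and from bone marrow. The 4 groups were LP-1 with DHA, LP-1 with DMSO, U266 with DHA and U266 with DMSO, each collected after 12 h as 3 RNA libraries. DHA is the active metabolite of the artemisinin antimalarials. It was given at its IC50, a concentration the labels do not state, and DMSO was its solvent. Each line stands for 1 tumour, and the labels do not say whether the replicates were separate cultures, so the spread between them may be technical.

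The kinase mTOR works in a pair of protein complexes, mTORC1 and mTORC2. mTORC1 promotes protein synthesis and growth when amino acids, growth factors and energy are plentiful. The sestrins restrain it through the amino acid branch, where they bind GATOR2 at the lysosome. DDIT4, also called REDD1, and the TSC1-TSC2 complex restrain it through the small GTPase RHEB, while DEPTOR and AKT1S1, also called PRAS40, bind the mTOR complexes themselves. In myeloma, DEPTOR is known for very high levels in part of the tumours.

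Values are FPKM, reads per length of transcript and per library size, as the authors deposited them. Levels were not compared across the lines, since the tables hold different gene sets. A gene is said to be called higher or lower where the limma fit on log2(FPKM + 1) over all tested genes of a line gave an adjusted p below 0.05. Log2 changes are DHA minus DMSO on that scale, with the standard error (SE) of the fit. Recovered from the steps between low FPKM values, depth was 13.43 to 17.51 M reads per LP-1 library and 10.32 to 21.84 M per U266 library.

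A pair of libraries stood apart. LP-1 DMSO replicate 3 differed from the other DMSO libraries by a median of 0.298 on the log2 scale, against 0.0594 to 0.214 for the other LP-1 libraries. Its genes with over 5000 bases of exon were lower by a median of 0.24 in log2. In U266 DHA replicate 3, 18399 genes were above 0, against 14682 to 14992 in the other U266 libraries. Summed over 10 plasma cell markers, LP-1 held 3566 to 3817 FPKM with DHA and 3891 to 4684 FPKM with DMSO, and U266 held 1364 to 1505 FPKM with DHA and 2203 to 2249 FPKM with DMSO. JCHAIN made up most of each sum. Of 8 plasma cell markers tested in LP-1, 2 rose and 4 fell. Among them the factor IRF4 rose to 253 FPKM with DHA, against 79.9 FPKM with DMSO, and the surface marker SDC1 fell to 5.16 FPKM with DHA, against 30.9 FPKM with DMSO. Of 8 tested in U266, none rose and 5 fell, SDC1 to 88.4 FPKM with DHA, against 192 FPKM with DMSO. SLAMF7 and CD27 averaged below 1 FPKM in both LP-1 groups, as CD38 did in both U266 groups. Markers of mature B cells summed to at most 2.61 FPKM in LP-1. In U266 they summed to 9.01 FPKM in DHA replicate 3, and that library also set the highest sums of T and NK cell markers (5.20 FPKM) and of monocyte markers (5.46 FPKM). Stromal and endothelial markers summed to 1.59 to 1.66 FPKM with DHA and 3.97 to 5.29 FPKM with DMSO in LP-1, where PECAM1 fell, and to 5.03 to 8.95 FPKM with DHA and 2.89 to 3.31 FPKM with DMSO in U266, where COL1A1 and COL3A1 rose. Erythroid markers reached at most 0.7 FPKM in LP-1. Their U266 sum was 6.98 to 7.56 FPKM with DHA and 10.2 to 11.6 FPKM with DMSO, and HBB fell there. The part of these libraries and markers in the changes below was not tested, but members' changes are given without the library concerned where that moved them by over 1.5 times or changed a call.

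Start regions are shown first, because stress-responsive factors are known to act there. SESN2, DDIT4 and SESN3 are shown for their large changes, and TSC2 because its window holds the most kinds of motif among the member windows searched. RefSeq windows run from 250 bases before to 50 bases after a start site (build GRCh38.p14), read 5′ to 3′ on the gene's own strand. Capitals mark every match, on either strand, to any of 6 motifs. TGATGNAA is the core of the composite element bound by C/EBP and ATF factors. TGACNNNGC is the core of the antioxidant response element. The E-box has the letters CACGTG. The shorter NCGTG also lies inside the E-box. It is a loosened form of the hypoxia response core, whose first base is A or G. The AP-1 site was searched as TGACTCA. The forkhead site was searched as GTAAACA. The windows shown are SESN2 at chr1:28259268-28259567 (plus strand), DDIT4 at chr10:72273674-72273973 (plus strand), SESN3 at chr11:95232426-95232725 (minus strand) and TSC2 at chr16:2047735-2048034 (plus strand).
SESN2: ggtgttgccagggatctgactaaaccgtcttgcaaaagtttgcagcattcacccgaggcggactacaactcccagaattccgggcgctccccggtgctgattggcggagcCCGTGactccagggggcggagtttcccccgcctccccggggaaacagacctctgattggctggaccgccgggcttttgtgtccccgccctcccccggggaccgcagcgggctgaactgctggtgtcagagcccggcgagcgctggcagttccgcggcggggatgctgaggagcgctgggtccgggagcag
DDIT4: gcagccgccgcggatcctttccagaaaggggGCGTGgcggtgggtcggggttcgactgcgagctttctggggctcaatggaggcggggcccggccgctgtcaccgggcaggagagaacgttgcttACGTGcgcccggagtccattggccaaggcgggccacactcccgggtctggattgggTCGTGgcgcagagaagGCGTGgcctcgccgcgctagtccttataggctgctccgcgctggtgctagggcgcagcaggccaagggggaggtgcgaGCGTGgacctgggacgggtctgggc
SESN3: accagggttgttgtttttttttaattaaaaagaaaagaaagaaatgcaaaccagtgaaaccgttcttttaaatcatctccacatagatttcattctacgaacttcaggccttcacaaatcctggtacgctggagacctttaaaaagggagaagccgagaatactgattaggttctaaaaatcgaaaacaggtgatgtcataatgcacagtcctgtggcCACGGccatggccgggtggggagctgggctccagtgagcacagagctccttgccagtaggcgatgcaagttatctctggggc
TSC2: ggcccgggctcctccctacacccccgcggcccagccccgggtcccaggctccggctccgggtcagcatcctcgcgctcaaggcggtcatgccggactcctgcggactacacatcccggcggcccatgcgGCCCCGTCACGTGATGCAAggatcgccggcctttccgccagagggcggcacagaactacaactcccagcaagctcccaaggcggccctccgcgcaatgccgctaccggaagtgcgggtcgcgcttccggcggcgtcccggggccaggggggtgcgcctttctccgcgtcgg

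DDIT4 held 5 copies of NCGTG, SESN2 held 1 and SESN3 held 1 on the opposite strand. NCGTG is common: 66.9% of the 35116 RefSeq windows hold at least 1 copy. Of the member windows searched, only the first TSC2 window held TGATGNAA (as TGATGCAA, 110 to 103 bases before the start) and CACGTG. These motifs lie in 3.62% and 7.26% of all windows. TGACNNNGC, held by 13.3% of all windows, lay on the reverse strand in that TSC2 window and in 1 of the 3 SESN1 windows. Neither TGACTCA (4.95% of all windows) nor GTAAACA (3.42%) lay in any of the 9 windows found for 6 of the members. A match is a run of letters and not a measured binding site. AKT1S1 is named only, and the DEPTOR window was not searched and is not shown.

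SESN2 showed by far the largest change of the group in LP-1 and shared the lead with DDIT4 in U266. SESN2 (ENSG00000130766, chr1:28259527-28282491, plus strand, GRCh38) encodes the leucine-binding sestrin that stress is known to induce. In LP-1 it stood at 141, 147 and 136 FPKM with DHA, against 12.4, 10.4 and 7.85 FPKM with DMSO. In U266 it stood at 95.7, 93.7 and 98.5 FPKM with DHA, against 13.3, 14.5 and 15.2 FPKM with DMSO. Every DHA library of a line lay several-fold above every DMSO library, with no overlap. The LP-1 means were 141 ± 5.51 FPKM with DHA and 10.2 ± 2.26 FPKM with DMSO (SD, n = 3 each), a 13.9-fold ratio and a log2 change of 3.69 (SE 0.153). The U266 means were 96.0 ± 2.45 FPKM with DHA and 14.3 ± 0.927 FPKM with DMSO (SD, n = 3 each), a 6.69-fold ratio and a log2 change of 2.66 (SE 0.055). Ordered by log2 change, SESN2 was number 4 of 12514 tested genes in LP-1 and number 13 of 10422 in U266. In bulk RNA, fewer cells with a transcript and less of it per cell cannot be told apart.

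SESN3 (ENSG00000149212, chr11:95165513-95232541, minus strand), the sestrin known as a FOXO target, was well expressed in LP-1 and close to absent from U266. In LP-1 it stood at 12.2, 11.6 and 11.6 FPKM with DHA, against 5.05, 6.15 and 3.43 FPKM with DMSO. The DHA libraries were nearly alike and all lay above the DMSO libraries, of which replicate 3 was the lowest. The means were 11.8 ± 0.351 FPKM with DHA and 4.88 ± 1.37 FPKM with DMSO (SD, n = 3 each), a 2.42-fold ratio and a log2 change of 1.15 (SE 0.173). Without LP-1 DMSO replicate 3 the log2 change was 0.96. In U266 SESN3 stood at 0.220, 0.177 and 0.277 FPKM with DHA, against 0.189, 0.165 and 0.202 FPKM with DMSO. These values rest on 24 to 48 reads with DHA and 31 to 38 reads with DMSO and fell below the filter of 1 FPKM. The U266 groups overlapped and the gene was not tested there.

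SESN1 (ENSG00000080546, chr6:108986437-109094819, minus strand), the sestrin known as a p53 target, was low in both lines. In LP-1 it stood at 1.49, 1.57 and 1.71 FPKM with DHA, against 1.90, 2.10 and 2.29 FPKM with DMSO. All DHA values lay below all DMSO values there, but the gene was not called, with a log2 change of -0.26 (SE 0.094). In U266 SESN1 stood at 2.72, 3.24 and 3.92 FPKM with DHA, against 2.75, 2.83 and 3.12 FPKM with DMSO. The U266 groups overlapped, and the log2 change was 0.13 (SE 0.121), or 0.03 without DHA replicate 3 and -0.01 after quantile normalization.

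**Figure D1:**
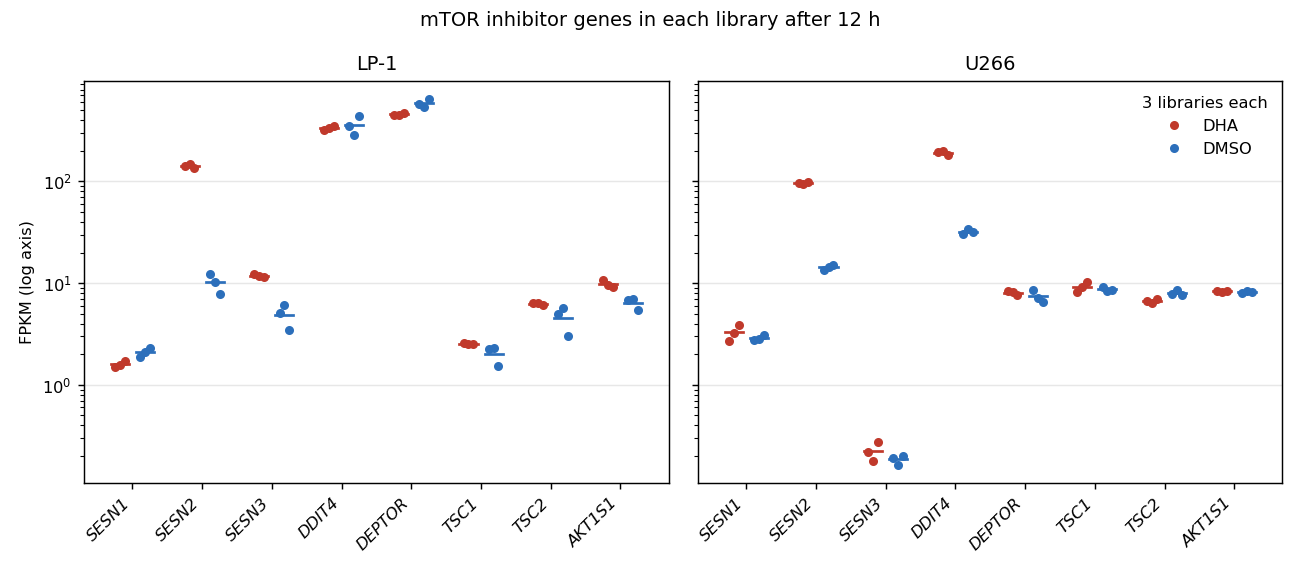
FPKM (log axis) of the 8 genes in each library after 12 h, LP-1 on the left and U266 on the right. Red points are DHA libraries, blue points are DMSO libraries and lines are means of 3. SESN2 stands at 141 FPKM with DHA and 10.2 FPKM with DMSO in LP-1, whereas DDIT4 separates the groups in U266 alone, at 192 FPKM with DHA and 32.0 FPKM with DMSO.

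The make-up of the sestrin pool differed with DHA in both lines, which follows from the change of SESN2. Summed over the 3 sestrins, LP-1 held 155 ± 5.48 FPKM with DHA and 17.2 ± 3.13 FPKM with DMSO (SD, n = 3 each). U266 held 99.5 ± 2.92 FPKM with DHA and 17.4 ± 1.11 FPKM with DMSO (SD, n = 3 each). SESN2 made up 91.3% ± 0.358 of the sum with DHA and 59.2% ± 4.33 with DMSO in LP-1 (SD, n = 3 each). In U266 its share was 96.5% ± 0.55 with DHA and 82.3% ± 0.511 with DMSO (SD, n = 3 each). The remainder was mostly SESN3 in LP-1, at 7.63% with DHA and 28.2% with DMSO. In U266 it was mostly SESN1, at 3.30% with DHA and 16.6% with DMSO.

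**Figure D2:**
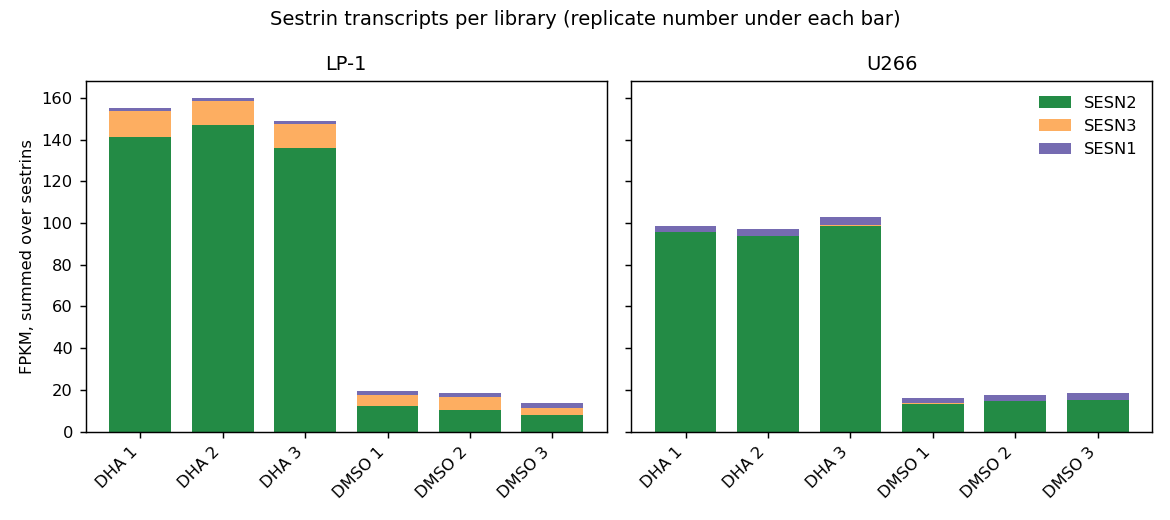
Stacked FPKM of SESN2 (green), SESN3 (orange) and SESN1 (purple) in each library, with DHA libraries left of DMSO libraries. The bars average 155 FPKM with DHA and 17.2 FPKM with DMSO in LP-1, and 99.5 FPKM with DHA and 17.4 FPKM with DMSO in U266, and most of the DHA height is SESN2.

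DDIT4 (ENSG00000168209, chr10:72273920-72276036, plus strand), a short stress-induced gene whose product acts through the TSC complex, differed most between the lines. In U266 it stood at 195, 199 and 183 FPKM with DHA, against 30.3, 33.9 and 31.9 FPKM with DMSO. The groups did not overlap, and the means were 192 ± 8.56 FPKM with DHA and 32.0 ± 1.77 FPKM with DMSO (SD, n = 3 each), a 6.01-fold ratio and a log2 change of 2.55 (SE 0.0549). It was number 15 of 10422 genes in U266 by log2 change. In LP-1 DDIT4 stood at 323, 334 and 347 FPKM with DHA, against 354, 286 and 435 FPKM with DMSO. The LP-1 DMSO libraries spread around the DHA libraries, and the gene was not called. Its log2 change in LP-1 was -0.08 (SE 0.163), or 0.07 without DMSO replicate 3. After quantile normalization it was 0.29 (SE 0.0682), and DDIT4 was then called higher in LP-1 too. Within LP-1 DDIT4 was already among the most abundant transcripts, at place 92 of 27823 genes above 0 with DMSO, and at place 72 of 28490 with DHA. In U266 it held place 141 of 18499 with DHA and place 1408 of 15919 with DMSO.

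TSC1 and TSC2 form the complex that switches RHEB off, with TSC1 stabilising TSC2, the subunit that acts on RHEB. TSC2 (ENSG00000103197, chr16:2047465-2089487, plus strand) stood at 6.39, 6.33 and 6.08 FPKM with DHA in LP-1, against 5.03, 5.65 and 3.02 FPKM with DMSO. All LP-1 DHA values were above all DMSO values, yet the gene was not called, at a log2 change of 0.42 (SE 0.188). Without DMSO replicate 3, the lowest library, the log2 change was 0.20 and the gene was called. In U266 TSC2 stood at 6.72, 6.43 and 6.93 FPKM with DHA, against 7.81, 8.48 and 7.65 FPKM with DMSO. There all DHA values were below all DMSO values, and TSC2 was called lower, at a log2 change of -0.22 (SE 0.0718). That call was lost in 8 of 14 alternative settings, among them the omission of any single library other than DHA replicate 3. TSC1 (ENSG00000165699, chr9:132891348-132946874, minus strand) was not called in either line. It stood at 2.56, 2.51 and 2.52 FPKM with DHA in LP-1, against 2.23, 2.32 and 1.52 FPKM with DMSO, without overlap. In U266 it stood at 8.23, 9.21 and 10.3 FPKM with DHA, against 9.23, 8.33 and 8.47 FPKM with DMSO, with overlap. The log2 change of TSC1 in LP-1 was 0.23 (SE 0.126), or 0.11 without DMSO replicate 3, and the gene was called higher at 0.29 after quantile normalization. In U266 it was 0.08 (SE 0.0852), or 0.0052 without DHA replicate 3.

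DEPTOR (ENSG00000155792, on chromosome 8), which binds mTOR in both complexes, was the most abundant member in LP-1 and an ordinary transcript in U266. In LP-1 it stood at 447, 446 and 474 FPKM with DHA, against 581, 544 and 642 FPKM with DMSO. All DHA values lay below all DMSO values, with means of 456 ± 15.9 FPKM with DHA and 589 ± 49.4 FPKM with DMSO (SD, n = 3 each). DEPTOR was called lower, at a log2 change of -0.37 (SE 0.109), but quantile normalization turned the change to 0.08. Leaving out any 1 DHA library or DMSO replicate 1 also ended the call, while without DMSO replicate 3 it held at -0.30. In U266 DEPTOR stood at 8.38, 8.13 and 7.67 FPKM with DHA, against 8.66, 7.07 and 6.57 FPKM with DMSO. These groups overlapped, and the log2 change was 0.11 (SE 0.0942).

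AKT1S1 (ENSG00000204673, chr19:49869033-49878459, minus strand) encodes the raptor-binding inhibitor that AKT phosphorylates. In LP-1 it stood at 10.7, 9.68 and 9.13 FPKM with DHA, against 6.84, 7.04 and 5.45 FPKM with DMSO. The groups did not overlap, the ratio was 1.52-fold, and AKT1S1 was called higher at a log2 change of 0.54 (SE 0.113). That call was lost without DHA replicate 1. In U266 AKT1S1 was nearly level, at 8.41, 8.27 and 8.40 FPKM with DHA against 8.02, 8.44 and 8.24 FPKM with DMSO. Its log2 change there was 0.02 (SE 0.0632), and its sign turned under TMM-style scaling and under quantile normalization.

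**Figure D3:**
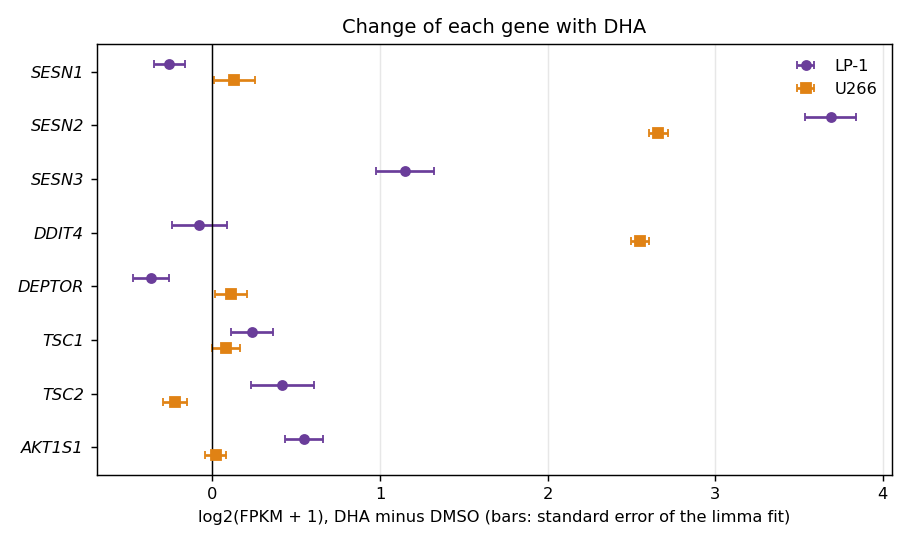
Change of each gene with DHA, as the difference in log2(FPKM + 1) between DHA and DMSO, for LP-1 (circles) and U266 (squares). Bars are standard errors of the limma fit, and SESN3 was not tested in U266. SESN2 lies far right in both lines, at 3.69 in LP-1 and 2.66 in U266, and DDIT4 in U266 alone, at 2.55.

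Over the group, LP-1 had 3 members called higher (SESN2, SESN3 and AKT1S1), 1 called lower (DEPTOR) and 4 not called. After quantile normalization, 5 members were called higher in LP-1 and none lower. Of all 12514 genes tested in LP-1, 20% were called higher and 20.2% lower, 40.2% in all. In U266, 7 members were tested, of which 2 were called higher (SESN2 and DDIT4), 1 lower (TSC2) and 4 not called. Of all 10422 genes tested in U266, 21.1% were called higher and 19.6% lower, 40.7% in all. The groups did not overlap for 7 of 8 members in LP-1, of which 5 lay higher and 2 lower with DHA, beside 30.2% and 28.6% of all tested genes, 58.8% in all. In U266 they did not overlap for 3 of the 7 tested members, of which 2 lay higher and 1 lower, beside 27.6% and 23.9% of all tested genes, 51.5% in all. Nothing is read from these counts, since the choice of members used the same contrasts. The median log2 change of the tested members was 0.33 in LP-1, beside 0.01 over all tested genes, and 0.11 in U266, beside 0.02. The members' median was 0.15 in LP-1 without DMSO replicate 3 and 0.03 in U266 without DHA replicate 3. In LP-1, DMSO replicate 3 was the lowest DMSO library for 5 members (SESN2, SESN3, TSC1, TSC2 and AKT1S1) and the highest for the other 3. In LP-1 the median change with DHA was 0.15 in log2 for genes with over 5000 bases of exon and -0.09 for genes of 1000 to 5000 bases. The exons of SESN3, TSC1, TSC2, AKT1S1 and SESN1 cover over 5000 bases, and those of SESN2, DEPTOR and DDIT4 cover 3453, 2622 and 2058 bases. The part of length in the members' changes was not tested.

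The difference between the lines was taken as the DHA effect in LP-1 minus that in U266, over 8867 genes kept in both, of which 18.6% were called higher and 16.1% lower, 34.7% in all. SESN2 changed more in LP-1, by 1.03 in log2 (SE 0.167). DDIT4 changed less in LP-1, by -2.63 (SE 0.172). The smaller differences that were called were 0.64 (SE 0.204) for TSC2, 0.53 (SE 0.125) for AKT1S1 and -0.48 (SE 0.132) for DEPTOR. The DEPTOR difference was 0.02 after quantile normalization, and the TSC2 call was lost in 8 of 19 alternative settings. Without LP-1 DMSO replicate 3 the TSC2 difference was 0.42 and the TSC1 difference 0.03. The differences for SESN1, at -0.39 (SE 0.149), and TSC1, at 0.15 (SE 0.156), were not called, and SESN3 could not be compared.

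The order of levels also changed with DHA. In LP-1 with DHA, DEPTOR, DDIT4 and SESN2 led, followed by SESN3, AKT1S1, TSC2, TSC1 and SESN1, and no neighbours in that order overlapped between libraries. In LP-1 with DMSO, SESN2 again came next after DEPTOR and DDIT4, but far behind them, and AKT1S1 overlapped SESN3, SESN3 overlapped TSC2 and SESN1 overlapped TSC1. SESN2 held place 207 of 28490 genes above 0 in LP-1 with DHA, against place 4137 of 27823 with DMSO. In U266 DDIT4 and SESN2 led in both groups, and TSC1, AKT1S1, DEPTOR and TSC2 lay close together below them, with TSC1 overlapping AKT1S1 in both groups. SESN2 held place 331 of 18499 genes in U266 with DHA, against place 3461 of 15919 with DMSO.

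The genes around the members are given by list, to be read beside the shares of all tested genes called above (20% higher and 20.2% lower in LP-1, 21.1% higher and 19.6% lower in U266). Differences of a list between the lines were not tested. Of 10 listed subunits and assembly factors of the mTOR complexes, 8 were tested in LP-1, where 3 rose and none fell, with a median log2 change of 0.30. None was called there without any 1 DHA library or without DMSO replicate 1, and 5 rose without DMSO replicate 2. In U266, 9 were tested, of which 1 rose and 4 fell, with a median of -0.08, while 2 rose without DHA replicate 3 and 2 fell without DMSO replicate 3. MTOR averaged 12.2 ± 0.717 FPKM with DHA and 5.74 ± 2.46 FPKM with DMSO in LP-1 (SD, n = 3 each), and rose by 1.04 in log2 (limma adjusted p = 0.0275). The LP-1 call of MTOR was lost without any 1 DHA library or without DMSO replicate 1, and the gene has 12119 bases of exon. In U266 MTOR was called lower, at 12.1 FPKM with DHA and 14.3 FPKM with DMSO, a log2 change of -0.22 (SE 0.0587). That call was lost without DMSO replicate 3 and in the joint fit of 12 libraries. The MTOR effect in LP-1 minus that in U266 was 0.93 to 1.49 over 19 alternative settings, called in each. In U266 the mTORC2 subunit PRR5 fell to 6.0 FPKM with DHA, against 13.3 FPKM with DMSO, a log2 change of -1.03 (limma adjusted p = 6.66e-06). TELO2, which helps mTOR kinases fold, fell by 0.54 in log2 there, and MLST8, a subunit of both complexes, rose by 0.32.

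Upstream, the amino acid branch held 17 listed genes (sensors, GATOR and KICSTOR). In LP-1, 15 were tested, 7 rose and none fell, with a median of 0.22. There 3 rose without DHA replicate 1 or 2, and 9 rose and 3 fell without DMSO replicate 3. In U266, 14 were tested, 1 rose and 3 fell, with a median of 0.00, and 2 rose without DHA replicate 1. SAMTOR, the methionine-pathway sensor, rose in both lines, by 0.67 in LP-1 and 0.73 in U266 in log2. CASTOR2, of the arginine sensor pair, fell in U266 to 49.3 FPKM with DHA, against 96.2 FPKM with DMSO, a log2 change of -0.95 (limma adjusted p = 4.81e-07). SLC38A9, the lysosomal arginine sensor, rose by 0.69 in LP-1.

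Of 12 listed Rag GTPases, Ragulator and folliculin genes, all were tested, and 2 rose and 1 fell in LP-1, with a median of -0.13, while 1 rose and 3 fell in U266, with a median of -0.11. In LP-1 none rose without any 1 DHA library and 1 rose without DMSO replicate 1. None fell there without DHA replicate 2, DHA replicate 3 or DMSO replicate 1, and 4 fell without DMSO replicate 2. In U266, 1 fell without DMSO replicate 2. FNIP1, a folliculin partner, rose in both lines, by 0.63 in LP-1 and 0.49 in U266 in log2, and the LP-1 call was lost without any 1 DHA library. Of 18 genes of the PI3K, AKT and RHEB arm, 14 were tested in LP-1, where 6 rose and 3 fell, with a median of 0.18, and 16 in U266, where 7 rose and 4 fell, with a median of 0.03. In LP-1, 0 or 1 fell without any 1 DHA library or without DMSO replicate 1, and 5 fell without DMSO replicate 3. RHEBL1, a RHEB relative, rose in LP-1 to 8.87 FPKM with DHA, against 2.35 FPKM with DMSO, a log2 change of 1.58 (limma adjusted p = 0.000935), and rose by 0.32 in U266. AKT1 fell in both lines, by 0.42 in LP-1 and 0.58 in U266 in log2, and the LP-1 call was lost without DHA replicate 1 or 3. Of 13 genes of the AMPK energy arm, 11 were tested in LP-1, where none rose and 4 fell, with a median of -0.19, and 8 in U266, where 2 rose and 2 fell, with a median of -0.01. In LP-1 none fell without DHA replicate 1 or 3, 1 fell without DHA replicate 2, and 2 rose and 2 fell without DMSO replicate 2. In LP-1, 1 rose without DMSO replicate 1 or 3, and in U266, 1 rose without DHA replicate 1 or DMSO replicate 1.

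Downstream, 20 listed mTORC1 substrates and effectors included the translation repressor EIF4EBP1. In LP-1, 19 were tested, 9 rose and 3 fell, with a median of 0.24, and in U266, 17 were tested, 5 rose and 3 fell, with a median of -0.02. In LP-1, 5 rose without DHA replicate 2, and none fell without any 1 DHA library or without DMSO replicate 1. EIF4EBP1 rose in LP-1 to 297 ± 17.6 FPKM with DHA, against 118 ± 29.3 FPKM with DMSO (SD, n = 3 each), a log2 change of 1.35 (limma adjusted p = 0.00213). It rose in U266 to 173 ± 8.34 FPKM with DHA, against 60.1 ± 7.31 FPKM with DMSO (SD, n = 3 each), a log2 change of 1.52 (limma adjusted p = 3.87e-07). GRB10, an adaptor that dampens insulin signalling, rose by 1.92 in log2 in LP-1. The translation inhibitor PDCD4 rose in both lines, by 0.77 in LP-1 and 0.72 in U266. The autophagy kinase ULK1 rose by 0.91 in U266 and was not called in LP-1.

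Stress-related factors showed the highest list medians. Of 16 listed, 13 were tested in LP-1, where 9 rose and none fell, with a median of 0.65, and 14 in U266, where 11 rose and none fell, with a median of 0.44. In LP-1, 1 fell without DMSO replicate 3. TRIB3, an ATF4-induced pseudokinase that binds AKT, rose in LP-1 to 119 FPKM with DHA, against 11.8 FPKM with DMSO, a log2 change of 3.23 (limma adjusted p = 1.61e-05). In U266 it rose to 80.4 FPKM with DHA, against 12.1 FPKM with DMSO, a log2 change of 2.64 (limma adjusted p = 1.08e-09). DDIT3, the stress factor CHOP, rose by 1.77 in LP-1 and 2.84 in U266, and CEBPB, a related bZIP factor, rose by 2.12 in LP-1 and 1.90 in U266. Of 13 genes for the turnover of member proteins, 12 were tested in each line. In LP-1, 6 rose and 2 fell, with a median of 0.32, and in U266, 1 rose and 2 fell, with a median of 0.03. In LP-1, 3 rose and none fell without any 1 DHA library, while none fell without DMSO replicate 1 and 1 without DMSO replicate 2. HERC1 had the largest change of this list in LP-1, a rise of 1.04, but that call was lost without any 1 DHA library or without DMSO replicate 1. FBXW11, part of a ubiquitin ligase that is known to target DEPTOR, rose by 0.46 in LP-1. The kinase CSNK1A1, which primes DEPTOR for it, rose by 0.59 in LP-1 and 0.24 in U266. OTUB1 fell in both lines, by 0.36 in LP-1, and DDB1 fell in U266 and was not called in LP-1. The part of these genes in the changes of the members was not tested.

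**Figure D4:**
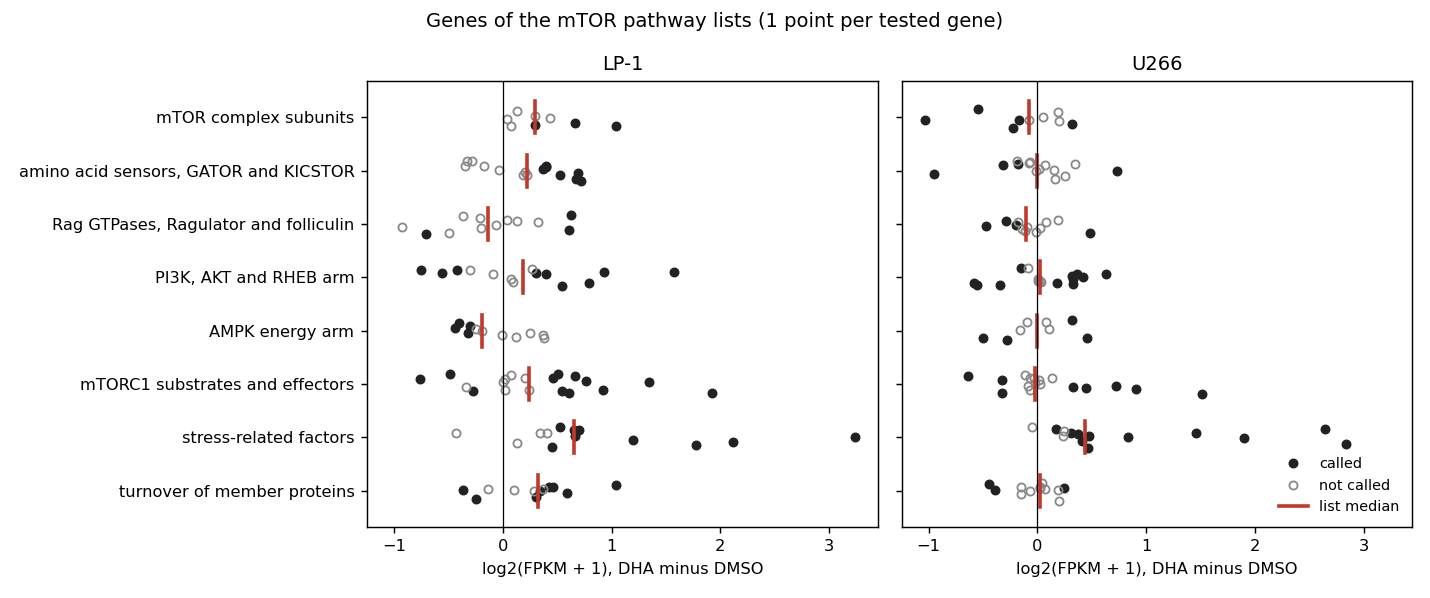
Each point is 1 tested gene of a pathway list, placed by its change with DHA in log2(FPKM + 1), in LP-1 (left) and U266 (right). Filled points were called, open points were not, and red bars are list medians. The stress-related factors have the highest medians, at 0.65 in LP-1 and 0.44 in U266.

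The genes whose pattern over the 12 libraries was most like that of SESN2, after subtracting each line's DMSO mean, were INHBE, GARS, ZCCHC8, SLC7A11 and TMEM39A. Their Pearson r was 0.995 to 0.996 over 8867 genes compared, a description carried by the gap between DHA and DMSO that all libraries share. INHBE, a secreted inhibin subunit, averaged 13.2 FPKM with DHA and 0.67 FPKM with DMSO in LP-1, and 57.4 FPKM with DHA and 9.89 FPKM with DMSO in U266. SLC7A11, the cystine importer, averaged 10.4 FPKM with DHA and 0.447 FPKM with DMSO in LP-1, and 48.8 FPKM with DHA and 12.1 FPKM with DMSO in U266. Those most like DEPTOR were TMEM69, CYHR1, PPP2R5C, POLR3GL and UQCC1, at r of 0.954 to 0.969. All 5 fell in LP-1 and were not called in U266, a description of genes picked for likeness to DEPTOR in these same libraries. POLR3GL, a subunit of RNA polymerase III, averaged 16.3 FPKM with DHA and 36.5 FPKM with DMSO in LP-1, and 7.98 FPKM with DHA and 7.55 FPKM with DMSO in U266.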

How the data were processed

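RNA of the myeloma lines LP-1 and U266 with DHA or DMSO was sequenced in 12 libraries, 3 per group. Per the labels, an RNeasy kit gave the RNA and a SMARTER mRNA-Seq kit the libraries. Each line has a table of FPKM values that the authors deposited. The mouse builds GRCm38 and mm10 are listed in the submitters' processing notes, although both tables hold human genes. How reads were aligned and counted, with or without strand, and with which annotation is not stated.

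With GENCODE v29 exon lengths, the spacing of low FPKM values gave each library's reads. The share within 0.1 of a whole read was 85.58 to 86.89% for LP-1 libraries and 94.95 to 95.8% for U266 libraries. Low counts were mostly even in 5 U266 libraries (75.4 to 78.13%), against 52.39% in DHA replicate 3 and 37.92 to 40.66% in LP-1. Gene positions are from GENCODE v29 (GRCh38) and promoter windows from RefSeq (GRCh38.p14).

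Tests used log2(FPKM + 1), which understates changes of low genes, for genes that reached 1 FPKM in 3 or more of a line's 6 libraries. limma 3.58.1 in R 4.3.3 (lmFit, then eBayes with a variance trend) was fitted to each line separately, two-sided. P-values were adjusted by Benjamini-Hochberg over every gene tested in that line, with 0.05 as the threshold. The lines were compared by an interaction contrast in a joint fit of the 12 libraries. P-values set the difference between groups against the spread between libraries, moderated over genes, and that spread may be technical.

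The members, the pathway and marker lists and the tests were chosen with earlier results of these data known. Named genes were all members, the 3 called genes with the largest change in each list and line, and the 5 genes most like SESN2 and like DEPTOR. SAMTOR is listed under an older symbol, BMT2. The main fits did not pair samples by replicate number. The correlation of deviations between same-numbered libraries was 0.0742, 0.0237 and 0.183 in LP-1 and -0.0386, -0.0832 and -0.0247 in U266. With 3 libraries per group, these values cannot decide whether the numbers pair the samples. Alternatives changed the pseudocount (to 0.1), the filter (none, or at least 5 FPKM on average), the scaling (TMM-style with trims of 30% and 5%, or quantile normalization), the variance trend (left out), the design (a replicate block, or the 12 libraries fitted jointly) and the libraries (each left out in turn).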

Additional observations from a re-analysis of the deposited data

Results flagged for a closer look

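For 5 of the 7 members that could be compared, the change with DHA differed between the lines in the limma interaction contrast over 8867 genes, of which 34.7% were called. The members were chosen with such changes known, so these values are a description. The DHA effect in LP-1 minus that in U266 was -2.629 in log2 for DDIT4, where all 3 U266 DHA libraries lay above all DMSO libraries and the LP-1 groups overlapped. It was 1.028 for SESN2, which was higher with DHA in all 3 libraries of both lines. For TSC2 it was 0.6391, with all DHA libraries above the DMSO libraries in LP-1 and below them in U266. For AKT1S1 it was 0.5256, and for DEPTOR it was -0.4771, both with groups that did not overlap in LP-1 and did in U266. The tables of the lines were made separately, and the line, the table and any difference in dose cannot be told apart.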

How the results depend on the processing

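Quantile normalization turned the DDIT4 change in LP-1 to 0.29, and the gene was then called higher (limma adjusted p = 0.016). It turned the change of DEPTOR in LP-1 to 0.077, that of SESN1 in U266 to -0.0099 and that of AKT1S1 in U266 to -0.029. The DEPTOR difference between lines became 0.023. TMM-style scaling gave -0.0019 for AKT1S1 in U266, and leaving out 1 library gave -0.23 to 0.072 for DDIT4 in LP-1, the sign turning without DMSO replicate 3. The cause was not tested. SESN2 kept its direction and call in every alternative run, with LP-1 changes of 3.53 to 3.83 and U266 changes of 2.61 to 2.74, as did SESN3 in LP-1 (0.96 to 1.31) and DDIT4 in U266 (2.51 to 2.61). Over 76 results on members and named genes, 975 of 1088 alternative values kept direction and call, 100 lost the call, 6 gained it and 7 changed sign. Values that changed sign are counted only as such, also where the call changed with them. With one library left out, genes called in LP-1 numbered 1367 to 3499 higher and 1543 to 3574 lower, in U266 1731 to 2224 and 1643 to 2151, and in the difference 1255 to 2257 and 1075 to 1989. The LP-1 counts were lowest without any 1 of its DHA libraries, at 1367 to 1399 higher and 1543 to 1595 lower, and highest without DMSO replicate 3. The mean filter of 5 FPKM, which tests fewer genes, gave 1664 higher and 1370 lower in LP-1, and 1309 higher and 706 lower in the difference (65% higher, against 53.6%). One fit of all 12 libraries, over the 8867 genes kept in both lines, gave 1431 higher and 1104 lower in U266. That was 28.6% of the genes tested, against 40.7% of 10422 in the main fit. In LP-1 the same joint fit called 56.3%, against 40.2% of 12514. Whether replicate numbers pair the samples is not known. A replicate block gave 2267 higher and 2292 lower in LP-1, 2016 and 1875 in U266, and 1537 and 1337 in the difference. With that block DEPTOR in LP-1 and TSC2 in U266 were no longer called. Depth limits SESN3 in U266, at 24 to 48 reads.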
